A study of Mus musculus with 6 samples.

Results

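The mitochondrial ribosomal protein genes of mouse granulosa cells were taken as every protein-coding gene whose symbol begins with Mrpl or Mrps followed by a digit. This rule found 78 of the 54551 genes in the deposited tables, 49 Mrpl genes of the large subunit series and 29 Mrps genes of the small subunit series. Granulosa cells are the somatic cells of the ovarian follicle around the oocyte, which turn from oestradiol to progesterone synthesis after the ovulatory signal. They came from the ovaries of C57BL/6 mice at postnatal day 21. Follicles had been primed for 48 h with PMSG (5 IU), and ovulation had been triggered for 6 h with hCG (5 IU), which acts through the receptor of luteinizing hormone. All groups received both hormones. The labels give 3 wild-type libraries, called WT 1 to WT 3 here, and 3 libraries of the genotype Gm12840-/-, called KO 1 to KO 3, where Gm12840 is a long noncoding RNA gene. How the allele was made is not given in the sources used here. Whether each library came from its own animal is not given, and p-values here measure the spread between these 6 samples, which may be technical.

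The mitochondrial ribosome translates the few proteins that mitochondrial DNA encodes, all of them subunits of the respiratory chain and ATP synthase. Its ribosomal RNAs are mitochondrial, while its proteins are encoded in the nucleus, made in the cytosol and imported. Some have a counterpart in the bacterial ribosome and others are specific to mitochondria. Cells that make steroids depend on mitochondria, where side-chain cleavage of cholesterol takes place. The 78 genes lie on 17 chromosomes, with 11 of them on chromosome 11. By the structural lists used here, 16 belong to the small subunit and have a bacterial counterpart, 10 are small subunit proteins specific to mitochondria, 29 are large subunit proteins with a bacterial counterpart and 22 are large subunit proteins specific to mitochondria. Mrps18a and Mrps30 are placed in the large subunit in spite of their names. Mrps36, the remaining gene, is now known as a component of the oxoglutarate dehydrogenase complex.

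The libraries differed from one another in ways that the genotype labels do not follow. Recovered depth ran from 16392098 to 19465847 reads. Gm12840 itself did not separate the labels, with 0.365 to 1.83 FPKM (reads scaled by gene length and library size), or 28 reads, over WT 1 to WT 3 against 0.426 to 1.45 FPKM, or 26 reads, over KO 1 to KO 3. Directions are therefore given for libraries by their label. All 12 granulosa cell markers, among them Foxl2, Fshr and Cyp19a1, were above 1 FPKM in at least 1 library. Reads of the 13 mitochondrially encoded protein genes took 0.198%, 0.286% and 2.05% of all reads in WT 1 to WT 3 and 1.47%, 4.13% and 0.125% in KO 1 to KO 3. WT 3, KO 1 and KO 2 thus stood apart from WT 1, WT 2 and KO 3 across the labels.

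The promoters of these genes are shown first, since the nuclear factors NRF1, GABP (also called NRF2) and YY1 are known regulators of nuclear genes for mitochondrial proteins. RefSeq windows on GRCm38.p6, from 250 bases before to 50 bases after the annotated start, were matched by symbol for 69 of the 78 genes. The letters searched, on both strands, were CCGGAAG for GABP, AANATGGCG for YY1 and a GC-rich pattern for NRF1. The capitals in Mrpl12 below match the NRF1 pattern on the opposite strand. The letters searched were thus the reverse complement of those capitals, with any base allowed directly after its only A. No occurrences of different motifs overlapped in the windows printed. The GABP letters were found in 24 of the 69 windows (34.8%), against 8.86% of all 32851 windows of that length and 19.3% of those of 8388 tested protein-coding genes. For NRF1 the count was 13 of 69 (18.8%), against 4.6% and 11.4%. For YY1 it was 11 of 69 (15.9%), against 2.38% and 5.95%. At least 1 kind was present in 40 windows (58.0%, against 14.2% of all windows and 32.3% of those of tested coding genes), at least 2 kinds in 8 windows (11.6%, against 1.57% and 4.24%), and none in 29. These matches describe letters in a window; a missing match says nothing about the factor. Below are the 170 bases before and 30 bases after the start for the 3 genes known from ovarian insufficiency in people (Mrps22, Mrps7 and Mrpl50), for the stalk protein gene Mrpl12, and for 4 genes with 2 kinds of motif. Capitals mark the motifs, on either strand.

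Mrps22 (chr9:98601650-98601849, minus strand): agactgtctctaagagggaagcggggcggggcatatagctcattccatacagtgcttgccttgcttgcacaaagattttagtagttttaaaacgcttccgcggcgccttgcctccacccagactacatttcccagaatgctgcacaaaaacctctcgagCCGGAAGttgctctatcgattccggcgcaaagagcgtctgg
Mrps7 (chr11:115603970-115604169, plus strand): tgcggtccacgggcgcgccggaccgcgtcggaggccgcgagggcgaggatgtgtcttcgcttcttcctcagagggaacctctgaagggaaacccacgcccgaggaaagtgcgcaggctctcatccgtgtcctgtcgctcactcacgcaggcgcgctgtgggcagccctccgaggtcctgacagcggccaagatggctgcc
Mrpl50 (chr4:49521054-49521253, minus strand): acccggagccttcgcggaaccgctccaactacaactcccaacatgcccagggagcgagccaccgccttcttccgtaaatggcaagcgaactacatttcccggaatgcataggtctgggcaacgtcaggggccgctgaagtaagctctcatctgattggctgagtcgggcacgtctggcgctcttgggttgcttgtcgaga
Mrpl12 (chr11:120484467-120484666, plus strand): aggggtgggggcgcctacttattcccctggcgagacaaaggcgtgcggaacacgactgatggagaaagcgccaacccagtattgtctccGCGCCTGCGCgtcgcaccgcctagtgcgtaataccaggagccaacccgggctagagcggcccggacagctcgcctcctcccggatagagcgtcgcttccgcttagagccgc
Mrps21 (chr3:95871485-95871684, minus strand): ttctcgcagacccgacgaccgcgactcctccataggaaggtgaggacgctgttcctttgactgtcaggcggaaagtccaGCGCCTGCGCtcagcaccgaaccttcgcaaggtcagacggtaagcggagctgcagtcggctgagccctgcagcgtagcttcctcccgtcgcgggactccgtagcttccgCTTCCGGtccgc
Mrpl27 (chr11:94653621-94653820, plus strand): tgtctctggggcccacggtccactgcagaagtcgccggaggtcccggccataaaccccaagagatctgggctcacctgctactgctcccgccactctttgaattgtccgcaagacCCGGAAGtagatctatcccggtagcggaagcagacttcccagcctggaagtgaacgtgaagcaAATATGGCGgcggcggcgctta
Mrps27 (chr13:99344616-99344815, plus strand): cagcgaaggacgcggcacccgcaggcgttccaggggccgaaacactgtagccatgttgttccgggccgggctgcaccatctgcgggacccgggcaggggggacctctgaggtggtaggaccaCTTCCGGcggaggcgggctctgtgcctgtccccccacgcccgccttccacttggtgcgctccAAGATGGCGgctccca
Mrpl58 (chr11:115403582-115403781, plus strand): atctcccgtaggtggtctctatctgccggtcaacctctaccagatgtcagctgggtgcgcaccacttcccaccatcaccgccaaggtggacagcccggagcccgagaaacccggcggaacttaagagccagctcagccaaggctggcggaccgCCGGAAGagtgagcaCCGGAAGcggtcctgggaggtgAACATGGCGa

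Mrps22 carries the GABP letters just before its start, and Mrps7 and Mrpl50 carry none of the 3 motifs in the window. Mrpl12 holds the NRF1 letters. Mrps21 holds NRF1 and GABP letters, and Mrpl27, Mrps27 and Mrpl58 hold GABP and YY1 letters, with the YY1 match after the start in each. In Mrpl58, which encodes a peptide-release factor built into the large subunit, the GABP letters occur at 2 places.

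Most of these genes were well expressed. The median over the 76 genes that passed the filter (over 1 FPKM in at least 3 libraries) was a mean of 20.6 FPKM, against 6.52 FPKM over all 12495 genes tested. The Mrpl genes had a median of 26.1 FPKM and the Mrps genes 15.3 FPKM. The highest mean levels over the 6 libraries were those of Mrpl52 (133 FPKM), Mrpl34 (120 FPKM), Mrps21 (109 FPKM), Mrpl28 (107 FPKM) and Mrpl54 (91.7 FPKM). None of these was above the next in the order in every library, while Mrpl34 and Mrps21 were above Mrpl54 in all 6. Each ranged at least 4.40-fold between libraries. Mrps23, a small subunit protein specific to mitochondria, was the lowest of those tested at 1.1 FPKM, followed by Mrpl1 (4.51 FPKM), the protein of the L1 stalk, and Mrps35 (4.67 FPKM).

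Mrpl53 and Mrps10 were listed at 0 in all 6 libraries. Mrpl53 encodes a protein near the L7/L12 stalk, and 88.0% of its exon length is shared with the annotated gene Gm42688 on the same strand. No annotated gene overlaps the exons of Mrps10. Recovered reads were 0 for both genes as well. They come from the same FPKM values, so they cannot tell a failed estimate from absence, and nothing is read from either 0.

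The order of the levels depends on the gene length that the FPKM values were divided by. The deposited lengths join all annotated exons of a gene. Dividing the same reads by the length of the principal coding transcript, an alternative chosen after seeing the data, gave ranks with a Spearman rho of 0.79 to the first order, across genes that are not independent replicates. Mrpl52 stayed highest, at 353 FPKM, and Mrps21 came second at 165 FPKM. Mrpl33, a short protein of the large subunit with a long annotated gene, moved from 7.70 FPKM and place 64 to 118 FPKM and place 7. Mrpl23 of the polypeptide exit moved from 13.7 to 96.4 FPKM. Mrpl33 was picked out after its values were seen. Ratios of FPKM between libraries are not touched by this choice, as the length is the same in each, but values on the log2(FPKM + 1) scale depend on it.

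**Figure D1:**
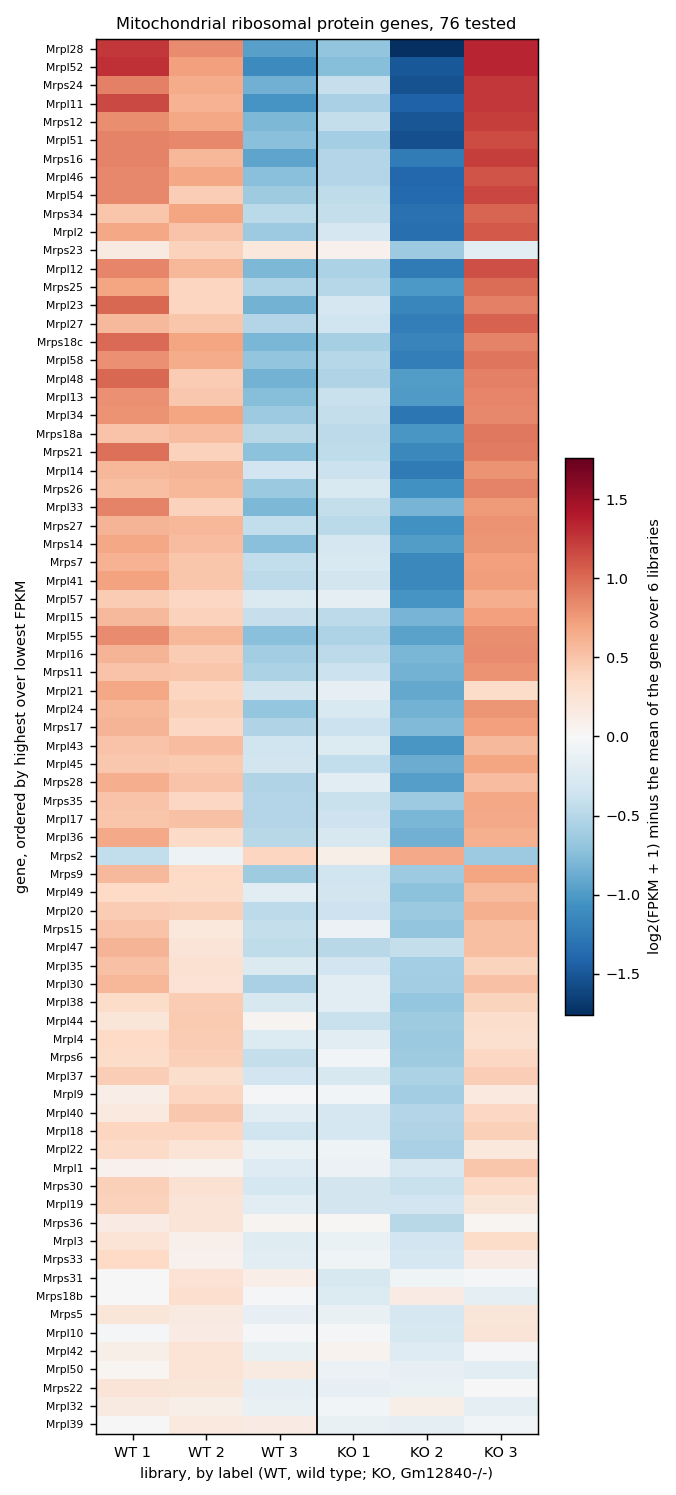
Colour map of the 76 tested genes (rows, ordered by the ratio of highest to lowest FPKM) in the 6 libraries (columns). Colour is the deviation of log2(FPKM + 1) from the gene's mean over the libraries, red above and blue below it. Most genes are red in WT 1, WT 2 and KO 3 and blue in WT 3, KO 1 and KO 2, with KO 2 lowest in 69 genes.

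Between libraries the genes varied together, and the split crossed the labels. Their reads took 0.549%, 0.512% and 0.303% of all reads in WT 1 to WT 3 and 0.335%, 0.228% and 0.606% in KO 1 to KO 3, with 95% Wilson intervals no wider than 0.00737 percentage points, which cover counting error only. The highest share was thus in a library labelled knockout, and so was the lowest. In median deviation from the gene mean (log2 scale), the 76 genes stood at 0.53, 0.42 and -0.45 in WT 1 to WT 3 and at -0.33, -0.82 and 0.67 in KO 1 to KO 3. KO 2 was the lowest library for 69 of the 76 genes, where it was lowest for 36.9% of all tested genes. The remaining genes had their lowest value in KO 1 (3 genes, 4.99% of all tested genes), KO 3 (3 genes, 22%) or WT 3 (1 gene, 8.88%), and 0 in WT 1 (19%) or WT 2 (8.21%). The highest library was KO 3 for 43 of them (23.8% of all tested genes), WT 1 for 19 (18.4%), WT 2 for 13 (10.7%), KO 2 for 1 (29.7%), and WT 3 (11.9%) or KO 1 (5.59%) for 0. WT 3 was the lowest of its label and KO 3 the highest of its label in 68 of 76 genes (89.5%), against 39.1% of all tested genes. The exceptions were Mrpl32, Mrpl39, Mrpl42, Mrpl50, Mrps2, Mrps18b, Mrps23 and Mrps31.

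The size of the swing varied among the genes. In FPKM it includes the authors' library totals, which were high against recovered depth in WT 3, KO 1 and KO 2. The ratio of the highest to the lowest library had a median of 3.14, against 2.32 for all tested genes, and ran from 1.28 in Mrpl39 to 8.95 in Mrpl28. It was at least 2-fold in 59 genes (77.6%, against 61.7% of all tested genes) and at least 3-fold in 43 (56.6%, against 34.6%). Across the 76 genes the log2 of this ratio had a Spearman rho of 0.46 with GC content, 0.44 with mean level and -0.23 with gene length. Over all tested genes these were 0.05, -0.12 and -0.26. The points share the same 6 libraries, so these are descriptions. Genes with the GABP letters in the window had a median ratio of 3.90 and those without 2.83, while for NRF1 the values were 3.07 and 3.19 and for YY1 3.23 and 3.14.

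The main comparison asked whether these genes differed between libraries labelled Gm12840-/- and wild type. None of the 76 passed the test. By limma, 0 passed an adjusted p of 0.05 (background 0% of the 12495 genes tested), and 0 had an unadjusted p under 0.05, where 91 of all tested genes did (0.728%). With limma-voom on the recovered reads, 0 genes of the whole table were called and 75 had an unadjusted p under 0.05 (0.6%). Every one of the 76 had a limma adjusted p of 0.993, and the smallest unadjusted limma p was 0.0794, for Mrps23. Log2 fold changes, on the log2(FPKM + 1) scale and of knockout label minus wild-type label, were below 0 in 74 genes (97.4%) where 55% of all tested genes were. Their median was -0.34, against -0.04 over all tested genes. They ran from -0.75 in Mrpl28 to 0.09 in Mrps2, and Mrpl1 at 0.06 was the other value above 0. Among the 3267 tested genes with a mean level between the quartiles of these genes, 9.28 to 36.4 FPKM, 66.2% of log2 fold changes were below 0 and the median was -0.10.

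This tilt rested on single libraries. Without KO 2 the median log2 fold change of the 76 genes was -0.03 and 43 were below 0. Without KO 3 it was -0.75, and without WT 3 it was -0.65. Without WT 1 it was -0.14, and without WT 2 -0.22. With replicate 3 of both labels left out, a setting chosen with the split of the libraries known, 52 of the 76 genes were called lower and 0 higher by limma, where 16.3% of all tested genes were called lower and 11.3% higher, 27.6% in all. In that fit 60 of the 76 had an unadjusted p under 0.05, against 44.6% of all tested genes. With the length slope (below) as a covariate, the median was -0.02, 41 genes were below 0 and 0 were called, where 1 gene of the whole table was called, higher (0.008%). In that fit 1 of the 76 had an unadjusted p under 0.05, against 5.02% of all tested genes. The median 95% interval of a log2 fold change reached 1.11 to either side, against 0.73 for all tested genes, so that differences below that size could mostly not be told from the spread. Since these are bulk samples, fewer cells of a type and less RNA per cell cannot be told apart.

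**Figure D2:**
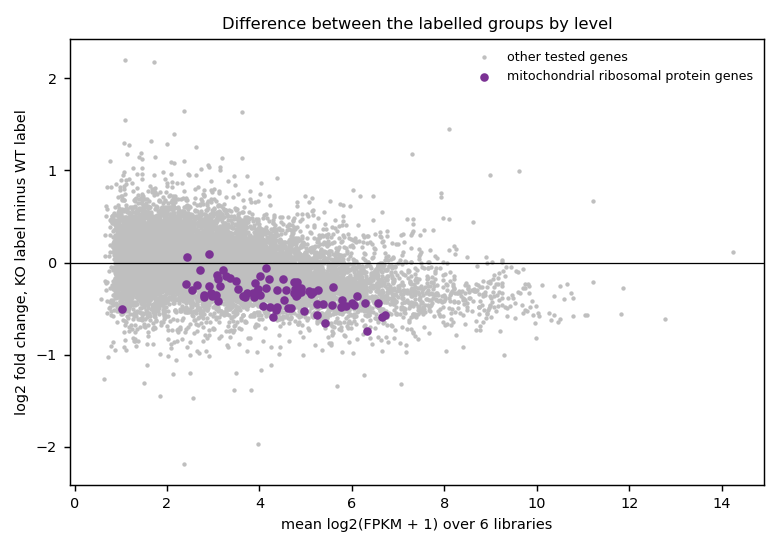
Log2 fold change (knockout label minus wild-type label) against the mean of log2(FPKM + 1) over the 6 libraries, for the other tested genes (grey) and for the 76 mitochondrial ribosomal protein genes (purple). 74 of the 76 lie below 0, with a median of -0.34, and no gene passed the test.

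In the small subunit, the proteins with a bacterial counterpart gave 14 of 15 log2 fold changes below 0 with a median of -0.33, and those specific to mitochondria 10 of 10 with a median of -0.28. Mrps12 (chr7:28739641-28741820, minus strand), the counterpart of the protein S12 at the decoding centre, stood at 102, 92.3 and 32.5 FPKM in WT 1 to WT 3 and at 42.3, 19.5 and 135 FPKM in KO 1 to KO 3. Both the lowest and the highest value belonged to the libraries labelled knockout, and the groups overlapped. Its means by label were 75.5 ± 37.5 and 65.6 ± 61.2 FPKM (SD, 3 libraries each), and the log2 fold change was -0.47 with a 95% interval of -2.29 to 1.35. Mrps21 (chr3:95862634-95871519, minus strand), the most abundant of the small subunit series, was at 185, 124 and 56.0 FPKM in WT 1 to WT 3 and at 68.4, 42.0 and 177 FPKM in KO 1 to KO 3. Its high libraries were again WT 1, WT 2 and KO 3.

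Mrps2 (chr2:28468066-28471178, plus strand), which encodes a protein with a bacterial counterpart in the small subunit, went the other way across the libraries. It stood at 4.61, 6.12 and 8.85 FPKM in WT 1 to WT 3 and at 7.13, 11.1 and 3.85 FPKM in KO 1 to KO 3. KO 2 was its highest library and KO 3 its lowest, the only such gene of the 76. Its log2 fold change of 0.09 had an interval of -0.83 to 1.01.

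Among the S18 paralogues, vertebrate mitochondria have 3 proteins related to bacterial S18, and their genes differed in how far they swung. Mrps18c (chr5:100798627-100804471, plus strand), in the small subunit, stood at 38.1, 30.4 and 10.1 FPKM in WT 1 to WT 3 and at 12, 7.68 and 34.7 FPKM in KO 1 to KO 3, a 4.96-fold range. Mrps18a (chr17:46110986-46128910, plus strand), in the large subunit, stood at 17.2, 17.7 and 8.22 FPKM and at 8.36, 5.34 and 23.5 FPKM, a 4.40-fold range. Mrps18b (chr17:35910379-35916389, minus strand), in the small subunit, stayed within 1.52-fold, with 7.51, 9.49 and 7.39 FPKM in WT 1 to WT 3 and 6.25, 8.41 and 6.59 FPKM in KO 1 to KO 3. WT 1, WT 2 and KO 3 were the high libraries of Mrps18c and Mrps18a but not of Mrps18b, whose second-highest library was KO 2. Their log2 fold changes were -0.59, -0.37 and -0.18, with intervals of -2.17 to 1.00, -1.68 to 0.93 and -0.68 to 0.32. Exons of Mrps18b and Mrps18c overlap other annotated genes over 30.5% and 23.2% of their length, and the kit does not mark strand, so some of these reads cannot be assigned.

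**Figure D3:**
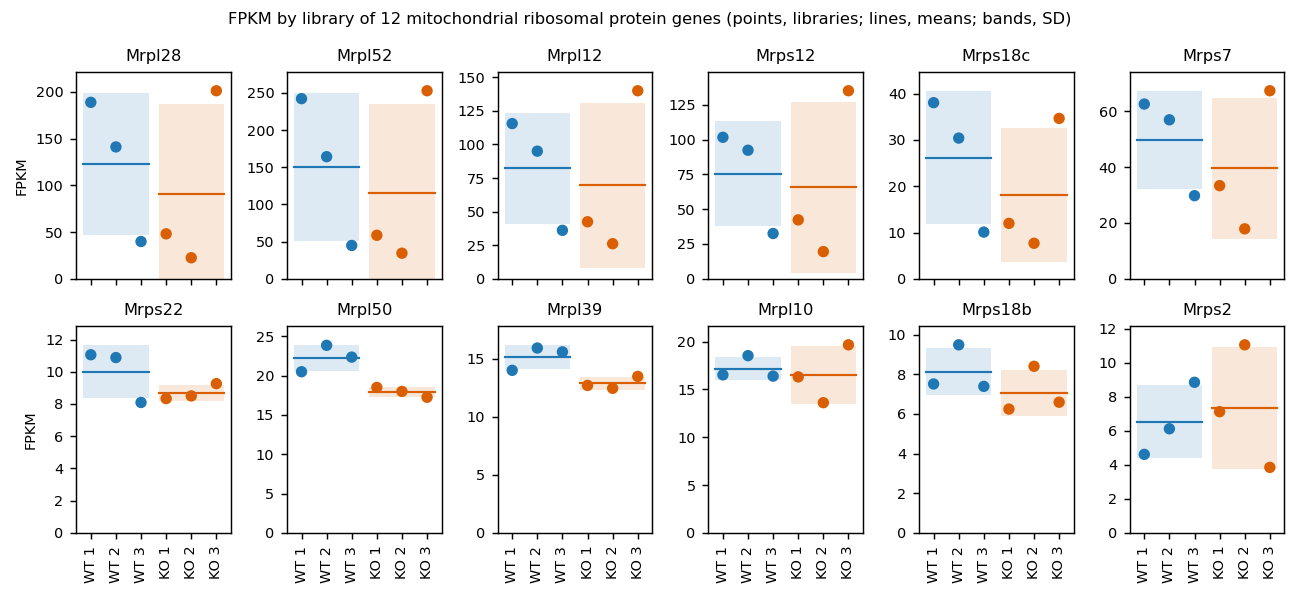
FPKM in each library for 12 of the genes described here, on linear axes that start at 0, with 1 point per library, a line at the mean of each label and a band of 1 SD to either side, cut off at 0. Mrpl28, Mrpl52, Mrpl12 and Mrps12 show WT 1, WT 2 and KO 3 well above the other libraries, while Mrpl50, Mrpl39 and Mrps22 vary little.

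In the large subunit, 28 of 29 genes with a bacterial counterpart had log2 fold changes below 0 (median -0.33) and so did 21 of 21 specific to mitochondria (median -0.41). Mrpl28 (chr17:26123520-26126613, plus strand) had the widest swing. It stood at 189, 141 and 39.9 FPKM in WT 1 to WT 3 and at 48.1, 22.5 and 201 FPKM in KO 1 to KO 3. KO 3 was above all libraries labelled wild type and KO 2 below them all. Its means by label were 123 ± 76.1 and 90.6 ± 96.7 FPKM (SD, 3 libraries each), with a log2 fold change of -0.75 and an interval of -2.91 to 1.42. Mrpl52 (chr14:54426909-54429756, plus strand), specific to mitochondria, stood at 242, 164 and 44.8 FPKM in WT 1 to WT 3 and at 58.5, 34.4 and 253 FPKM in KO 1 to KO 3, with the same libraries high and low. Mrpl34, Mrpl51 and Mrpl14 were alike, with ranges of 4.43-fold, 6.89-fold and 4.32-fold and log2 fold changes of -0.57, -0.66 and -0.57.

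The L7/L12 stalk recruits elongation factors to the ribosome. Mrpl12 (chr11:120484613-120489065, plus strand), the stalk protein itself, stood at 116, 95 and 36.1 FPKM in WT 1 to WT 3 and at 42.4, 26.1 and 140 FPKM in KO 1 to KO 3. Its log2 fold change was -0.44 with an interval of -2.13 to 1.25, and the groups overlapped. Mrpl11, at the base of the stalk, ranged 6.95-fold and Mrpl54, beside it, 6.00-fold, with KO 3 highest and KO 2 lowest in both. Mrpl10 (chr11:97041560-97049213, plus strand), which anchors the stalk, was much steadier. It stood at 16.5, 18.5 and 16.4 FPKM in WT 1 to WT 3 and at 16.3, 13.6 and 19.7 FPKM in KO 1 to KO 3, a 1.44-fold range with a log2 fold change of -0.06. KO 3 was highest and KO 2 lowest in Mrpl10 too.

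Of the 7 genes listed at the polypeptide exit, all 7 had log2 fold changes below 0, with a median of -0.31. Mrpl45, which holds the ribosome to the inner membrane, stood at 31.3, 31.0 and 17.7 FPKM in WT 1 to WT 3 and at 16.3, 11.7 and 36.7 FPKM in KO 1 to KO 3. Mrpl44, which has a fold of the RNase III family, stood at 20.6, 24.7 and 18.4 FPKM and at 13.2, 11 and 22.1 FPKM. In both, KO 1 and KO 2 lay below all libraries labelled wild type, while KO 3 lay above them all for Mrpl45 and among them for Mrpl44. Mrpl22, Mrpl23, Mrpl24 and Mrpl47 ranged from 1.93-fold (Mrpl22) to 5.21-fold (Mrpl23), with log2 fold changes of -0.31, -0.37, -0.22 and -0.25. Mrpl23 has an expressed processed pseudogene, Mrpl23-ps1, so its reads are uncertain. Exons of Mrpl24 and Mrpl47 overlap neighbouring genes over 26.3% and 24.2% of their length. Mrpl39 (chr16:84717576-84735742, minus strand) had the smallest range of all 76, with 14, 15.9 and 15.6 FPKM in WT 1 to WT 3 and 12.7, 12.4 and 13.5 FPKM in KO 1 to KO 3.

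In 5 genes, the FPKM values of all libraries labelled knockout lay below all labelled wild type, and in 0 genes above. These are 6.58% of the 76, where 2.08% of all tested genes did not overlap with the knockout label lower, 1.45% with it higher and 3.53% in either direction. They were Mrpl39, Mrpl50, Mrps23, Mrps31 and Mrps36, and none passed the test. The separation rests on the authors' library totals. As a share of recovered reads, KO 1 lay above WT 1 in each of the 5. Reads in KO 1 and WT 1 were 601 and 526 for Mrpl39, 731 and 643 for Mrpl50, and 34 and 30 for Mrps23. They were 390 and 386 for Mrps31 and 355 and 310 for Mrps36, at recovered depths of 16722828 and 16609477. The share of all tested genes on that scale was not counted. Mrpl50 (chr4:49512596-49521093, minus strand), a large subunit protein specific to mitochondria, stood at 20.5, 23.8 and 22.3 FPKM in WT 1 to WT 3 and at 18.5, 18 and 17.2 FPKM in KO 1 to KO 3. Its means by label were 22.2 ± 1.68 and 17.9 ± 0.629 FPKM (SD, 3 libraries each), and by limma the log2 fold change was -0.30 (interval -0.76 to 0.17, adjusted p 0.993). KO 3, which had the most reads of these genes as a whole, was the lowest library for Mrpl50.

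Mrps31, a small subunit protein specific to mitochondria, stood at 7.90, 9.67 and 8.70 FPKM in WT 1 to WT 3 and at 6.34, 7.50 and 7.78 FPKM in KO 1 to KO 3, a log2 fold change of -0.25. Mrps36 stood at 16.4, 17.4 and 15.2 FPKM and at 14.9, 10.1 and 15.0 FPKM, where KO 3 and WT 3 nearly touched. Mrps36 has expressed processed pseudogenes, Mrps36-ps1 (64 reads over the 6 libraries) and Mrps36-ps2 (28 reads), so its reads are uncertain. For Mrps23 (chr11:88204388-88211507, plus strand) the values were 1.30, 1.71 and 1.32 FPKM against 1.17, 0.316 and 0.791 FPKM, resting on 30, 45 and 45 reads against 34, 9 and 19 reads. Its log2 fold change of -0.50 had an interval of -1.08 to 0.08, and at so few reads counting error is part of the spread.

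The 3 genes known from ovarian insufficiency in people also differed in their spread. Mrps22 (chr9:98588730-98601660, minus strand), a small subunit protein specific to mitochondria, stood at 11.1, 10.9 and 8.09 FPKM in WT 1 to WT 3 and at 8.33, 8.50 and 9.26 FPKM in KO 1 to KO 3. WT 3 was the lowest of the 6 libraries, so the groups overlapped. The log2 fold change was -0.17 with an interval of -0.66 to 0.32. Mrps7 (chr11:115603925-115608036, plus strand), a counterpart of bacterial S7, stood at 62.6, 57.0 and 29.8 FPKM and at 33.4, 17.9 and 67.4 FPKM, with a log2 fold change of -0.45 and an interval of -1.71 to 0.81. Mrps7 thus swung 3.76-fold and followed the main split, while Mrps22 and Mrpl50 ranged 1.37-fold and 1.38-fold. None of the 3 was called.

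Several of these genes share sequence with neighbours. Exons of 33 of the 78 overlap those of another annotated gene to some extent, and 3 do so over most of their length. Besides Mrpl53, these were Mrps34, overlapped over 77.8% by Mapk8ip3, and Mrps25, overlapped over 69.8% by Nr2c2, both on the opposite strand. Mrps34 stood at 22.5, 26.2 and 11.1 FPKM in WT 1 to WT 3 and at 11.6, 5.75 and 33.3 FPKM in KO 1 to KO 3. Without strand, its reads and those of Mapk8ip3 cannot be told apart.

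The dependence of the values on gene length varied with the split of the libraries, and its part in the split was not tested beyond the values given here. The slope of log2(FPKM + 1) on log2 gene length over all tested genes was -0.26, -0.21 and -0.02 in WT 1 to WT 3 and -0.09, 0.07 and -0.25 in KO 1 to KO 3. The mitochondrial ribosomal protein genes are short, with a median of 2213.5 nt against 3639 nt for all tested genes. The 25 shortest, 607 to 1560 nt, had median deviations of 0.68, 0.50 and -0.61 in WT 1 to WT 3 and -0.39, -1.13 and 0.83 in KO 1 to KO 3. All 1512 tested genes in that range of length had 0.43, 0.30 and -0.35, and -0.17, -0.59 and 0.42. For the 26 longest, 3291 to 8631 nt, the medians were 0.51, 0.36 and -0.46, and -0.35, -0.64 and 0.67. There the 5527 tested genes in the same range ran the opposite way and far less, at -0.12, -0.04 and 0.09, and 0.03, 0.13 and -0.10. These classes, and the correction below, use lengths that join all annotated exons. In some of the longest members the principal transcript is short, as in Mrpl33 (478 of 7326 nt) and Mrpl23 (692 of 4883 nt). In others it is nearly as long, as in Mrpl17 (7300 of 7605 nt). After a correction of each library for length and GC content, the 76 genes still had median deviations of 0.37, 0.27 and -0.29 in WT 1 to WT 3 and -0.25, -0.54 and 0.52 in KO 1 to KO 3.

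**Figure D4:**
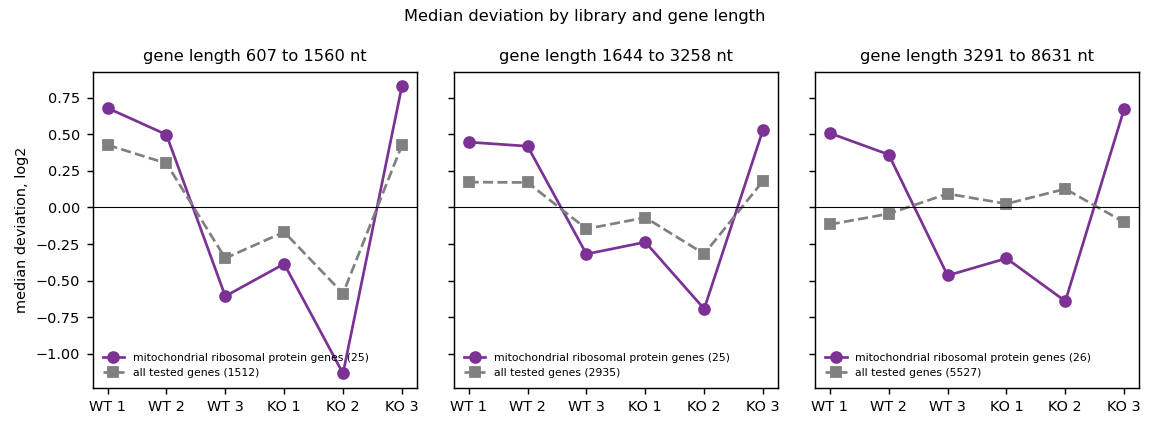
Median deviation from the gene mean (log2 of FPKM + 1) by library for the mitochondrial ribosomal protein genes in 3 classes of gene length, beside all tested genes in the same length range (dashed). The longest class of the members keeps the pattern, at 0.67 in KO 3 and -0.64 in KO 2, where all genes of that length lie at -0.10 and 0.13. Gene length joins all annotated exons, so this class also holds genes with a short principal transcript.

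Genes that work with the mitochondrial ribosome were compared by the same fit, and 0 of any list were called. Of 8 genes listed as ribosomal proteins of mitochondria under other names, 6 were found by symbol. They gave 5 of 6 log2 fold changes below 0, with a median of -0.39. This counts Oxa1l (-0.10), which encodes an insertase of the inner membrane and not a ribosomal protein. The value above 0 was that of Ptcd3 (0.15), which was highest in KO 2 (8.35 FPKM) and lowest in KO 3 (4.45 FPKM). Chchd1, the most abundant on this list, stood at 175, 130 and 43.1 FPKM in WT 1 to WT 3 and at 57.9, 27.0 and 189 FPKM in KO 1 to KO 3. Aurkaip1 had the same high and low libraries, from 24.1 to 103 FPKM. Assembly and rRNA modification factors had 20 of 24 below 0 with a median of -0.23. Rbfa, which binds the small subunit rRNA during assembly, ranged from 21.1 FPKM in KO 2 to 94.5 FPKM in KO 3, and the RNA helicase Ddx28 from 25.6 to 59.6 FPKM in the same libraries.

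Translation factors had 9 of 13 log2 fold changes below 0 and a median of -0.03, near that of all tested genes. The 2 most abundant nonetheless followed the split, while the next, Gfm1, named after its values were seen, ran opposite to it. Gfm1 stood at 4.05, 5.80 and 9.69 FPKM in WT 1 to WT 3 and at 8.46, 10.5 and 3.66 FPKM in KO 1 to KO 3. Tufm, the elongation factor that brings aminoacyl-tRNA to the ribosome, stood at 115, 102 and 48.0 FPKM in WT 1 to WT 3 and at 51.3, 34.5 and 111 FPKM in KO 1 to KO 3, and Tsfm, its exchange factor, ranged from 7.16 FPKM in KO 2 to 23.1 FPKM in WT 1. Mitochondrial aminoacyl-tRNA synthetases had 14 of 17 below 0 and a median of -0.15. The highest were Gars and Kars, which serve both the cytosol and mitochondria, at log2 fold changes of -0.39 and -0.28. The genes of mitochondrial transcription and DNA maintenance had 6 of 9 below 0 and a median of -0.09. Among them were Twnk, the DNA helicase, at -0.30 and Tfam, which packages mitochondrial DNA, at -0.27. Exons of Twnk overlap those of Mrpl43 on the opposite strand, so part of their reads cannot be told apart.

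Most of the genes that the mitochondrial ribosome translates ran opposite to those of its own proteins. In 11 of the 13, WT 3 was the highest of its label and KO 3 the lowest. The 13 mitochondrially encoded protein genes had median deviations of -1.27, -1.02 and 1.38 in WT 1 to WT 3 and of 0.79, 2.35 and -1.73 in KO 1 to KO 3. mt-Co1, a subunit of cytochrome oxidase, stood at 814, 1289 and 6423 FPKM in WT 1 to WT 3 and at 4866, 12115 and 456 FPKM in KO 1 to KO 3. mt-Cytb, which encodes cytochrome b, was likewise highest in KO 2 (5809 FPKM) and lowest in KO 3 (115 FPKM). The exceptions were mt-Co2 and mt-Co3, other subunits of cytochrome oxidase. mt-Co2 stood at 87.1, 74.6 and 78.6 FPKM in WT 1 to WT 3 and at 116, 62.5 and 135 FPKM in KO 1 to KO 3, highest in KO 3 and lowest in KO 2 like the ribosomal proteins, and mt-Co3 was also lowest in KO 2, at 51.3 FPKM. The 2 mitochondrial rRNAs ranged less than mt-Co1, with mt-Rnr1 from 106 to 242 FPKM and mt-Rnr2 from 76.6 to 172 FPKM. Cytosolic ribosomal protein genes ran the same way as the mitochondrial ones and further. Their median deviations were 0.95, 0.46 and -0.80 in WT 1 to WT 3 and -0.35, -1.16 and 0.84 in KO 1 to KO 3, with 77 of 78 log2 fold changes below 0 and a median of -0.43.

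Summed levels of erythroid, surface epithelium and oocyte markers varied with the same split, and those of endothelial markers in reverse. All 5 erythroid markers were detected, and their summed level was 4455, 2793 and 613 FPKM in WT 1 to WT 3 and 756, 473 and 3512 FPKM in KO 1 to KO 3. The 5 surface epithelium markers summed to 149, 76.8 and 48.5 FPKM and to 53.1, 30.4 and 149 FPKM, with median deviations of 0.79, 0.08 and -0.53, and -0.33, -0.99 and 0.91. The granulosa cell list summed to 12381, 11665 and 6526 FPKM and to 6601, 4729 and 9566 FPKM, most of it from Inha, the inhibin alpha subunit (10808, 10467 and 5701 FPKM, and 5711, 3973 and 8032 FPKM). Over its 12 markers the median deviations were 0.17, 0.08 and 0.02, and -0.22, -0.15 and 0.09, and Kitl, Inhba, Fst and Nr5a2 were highest in KO 2. Oocyte markers summed to 410, 373 and 247 FPKM in WT 1 to WT 3 and to 275, 223 and 352 FPKM in KO 1 to KO 3. Of these, 9 of 9 were above 1 FPKM in at least 1 library. Over the 8 tested, median deviations were 0.44, 0.28 and -0.30 in WT 1 to WT 3 and -0.09, -0.42 and 0.08 in KO 1 to KO 3. Bmp15 went the other way, highest in KO 2. Zp2 was lowest in KO 3, at 26.0 FPKM, and Figla was lowest in WT 2, at 0.566 FPKM. Endothelial markers summed to 8.85, 5.89 and 14.8 FPKM and to 15.0, 17.9 and 11.6 FPKM, though Eng was highest in KO 3. Over all 6 libraries, leukocyte markers summed to 29.6 to 45.8 FPKM and theca markers to 34.1 to 79.6 FPKM. Markers of stroma and smooth muscle summed to 60.4 to 116 FPKM. Of the last, 8 of 8 tested had log2 fold changes above 0, with a median of 0.50, and 0 were called. On none of these lists was a gene at 0 in all libraries. The part of these cells in the differences between libraries was not tested.

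**Figure D5:**
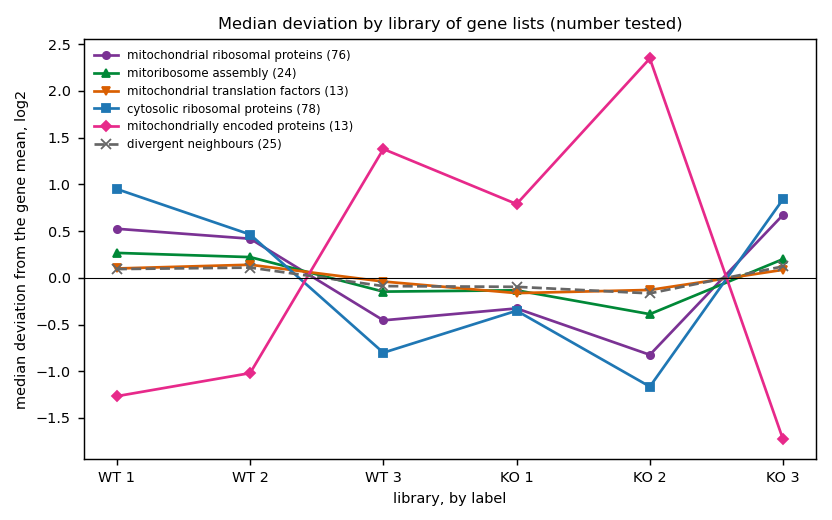
Median deviation from the gene mean (log2 of FPKM + 1) by library for the mitochondrial ribosomal protein genes and other lists, with the number of genes tested. The median of the mitochondrially encoded genes runs opposite to that of the ribosomal proteins, from 2.35 in KO 2 to -1.73 in KO 3, and the median of the divergent neighbours lies between -0.17 and 0.12, though single neighbours deviate further.

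Many mitochondrial ribosomal protein genes face another gene head to head. In 32 of the 76 (42.1%), a protein-coding gene on the opposite strand starts within 1000 bp, against 1765 of 10683 tested coding genes (16.5%). Their 25 tested partners outside the set had median deviations of 0.09, 0.11 and -0.09 in WT 1 to WT 3 and of -0.10, -0.17 and 0.12 in KO 1 to KO 3. The 25 mitochondrial ribosomal protein genes that face them had 0.59, 0.46 and -0.44, and -0.33, -1.0 and 0.65. These medians of signed deviations do not measure how far single partners varied. The ratio of the highest to the lowest library had a median of 1.84 over the 25 partners and 3.59 over the genes facing them, and it was smaller in the partner in 17 of 25 pairs and larger in 8. Among partners it ran from 1.21 in Ska3, which faces Mrpl57, to 14.2 in Ndufs6, which faces Mrpl36 (2.97). The median length of the partners was 4101 nt, against 4185 nt for all tested protein-coding genes and 2213.5 nt for the 76 members. Log2 fold changes of the partners had a median of -0.12 with 17 of 25 below 0. The pairs named here were chosen after their values were seen. Fau, which encodes a cytosolic ribosomal protein fused to a ubiquitin-like one, ranged 8.43-fold and Mrpl49, which it faces, 2.52-fold. Zfp189 ranged 2.96-fold against 1.38-fold in Mrpl50. Helq, a DNA helicase gene 29 bp from Mrps18c, ranged 1.41-fold against 4.96-fold. Mrps12 faces Sars2, the mitochondrial seryl-tRNA synthetase. Mrps11 and Mrpl46 face each other and overlap, so part of their reads cannot be told apart. Both had KO 3 highest and KO 2 lowest, at 45.7 and 14.1 FPKM for Mrps11 and 66.5 and 10.9 FPKM for Mrpl46.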

How the data were processed

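RNA of granulosa cells was measured in 6 libraries made with a TruSeq RNA kit, per the labels' protocols, which does not mark strand. The authors deposited FPKM values per gene, with coordinates, exon length and biotype. Per the submitters' processing notes, the tool was HISAT2 2.0.5 and the build mm10. The sources used here do not name the counter, the annotation or the scaling. FPKM times gene length gave whole reads in 100% of values, within 0.01 reads, so reads were recovered. The authors' library totals were 0.894, 0.939 and 1.12 times the recovered depth in WT 1 to WT 3. In KO 1 to KO 3 they were 1.12, 1.12 and 0.904 times it. This factor followed the split of the libraries. Against shares of recovered reads, it scaled FPKM down in WT 3, KO 1 and KO 2 and up in the others.

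Groups came from the titles. Genes over 1 FPKM in at least 3 libraries were tested with limma 3.58.1 (R 4.3.3) on log2(FPKM + 1), using a mean-dependent prior variance and a single term for genotype, two-sided, with Benjamini-Hochberg adjustment over all tested genes and a threshold of 0.05. This scale understates fold changes of genes at low levels. The script was tested on simulated data. Deviations are log2(FPKM + 1) minus the gene's mean over the libraries. Sequences are from RefSeq on GRCm38.p6, and principal transcripts, GC content and exon overlaps from GENCODE M21. Libraries of 1 label differed by more than counting noise and none was taken for a copy of another, which does not show that they are separate biological samples.

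The members, the lists (structural, role, pathway and cell marker) and the named-gene rule were chosen with earlier results of these data known. The rule took called members, the 5 highest and 5 lowest levels, the 5 most negative and 5 most positive log2 fold changes, members without overlap between groups, and members of the role lists. For other lists it took the 2 highest. Alternatives were pseudocounts, filters, library totals, limma-voom on recovered reads, the replicate number as a block, the length slope as a covariate, a correction for length and GC content, and leaving out libraries. Same-numbered samples did not deviate together (r = -0.42, -0.67 and -0.89 across genes), so the numbers were not taken as pairs. Figures were drawn with matplotlib 3.10.9.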

Additional observations from a re-analysis of the deposited data

Results flagged for a closer look

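Reads of processed pseudogenes of mitochondrial ribosomal proteins lie outside the comparisons above, and 4 of them exceeded the 3 reads that a count of 0 allows, in libraries of both labels. Over the 6 libraries Mrpl23-ps1 had 430 reads, Mrpl48-ps 202, Mrps36-ps1 64 and Mrps36-ps2 28, while Mrps36-ps3 was listed at 0. Mrpl23-ps1 stood at 12.9, 8.36 and 2.05 FPKM in WT 1 to WT 3 and at 6.45, 2.64 and 12.7 FPKM in KO 1 to KO 3. Mrpl48-ps stood at 4.34, 2.60 and 1.51 FPKM and at 3.19, 1.46 and 5.82 FPKM. Reads of the parent genes can fall on these copies, and the share that did was not tested.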

How the results depend on the processing

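The count of 0 genes called, over the whole table and among the mitochondrial ribosomal protein genes, did not move with the replicate number as a block (0 and 0), the pseudocount, the filter, limma-voom, library totals or leaving out each library in turn (0 to 0). Among all tested genes, 1 that is no member was called higher with the length slope and 1 with length and GC content corrected. With replicate 3 of both labels left out, 3451 genes and 52 members were called, and the median log2 fold change of the members moved from -0.34 to -1.07. Leaving out each library gave medians of -0.75 to -0.03. The median was -0.26 with library totals, -0.02 with the length slope and -0.24 with length and GC content corrected. Of 544 values for 32 named members, 487 kept their direction and side of the threshold, 19 crossed the threshold, all without replicate 3, and 38 changed sign. Sign changes were Mrpl1 without replicate 3 (-0.26) and with length and GC content corrected (-0.083), and Mrpl10 with library totals (0.019), the length slope (0.017) and length and GC content corrected (0.15). With the length slope they were Mrpl11 0.14, Mrpl12 0.099, Mrpl23 0.13, Mrpl24 0.17, Mrpl3 0.061, Mrpl47 0.0083, Mrpl52 0.097, Mrpl54 0.099, Mrps12 0.12, Mrps18a 0.035, Mrps2 -0.19, Mrps21 0.047 and Mrps35 0.080. Leaving out each library gave these ranges where a sign changed: Mrpl1 -0.16 to 0.23, Mrpl10 -0.19 to 0.062, Mrpl11 -1.24 to 0.091, Mrpl12 -1.12 to 0.069, Mrpl23 -0.91 to 0.12, Mrpl24 -0.66 to 0.14, Mrpl3 -0.27 to 0.062, Mrpl52 -1.42 to 0.0043, Mrpl54 -1.13 to 0.14, Mrps12 -1.20 to 0.16, Mrps18a -0.93 to 0.047, Mrps2 -0.22 to 0.43, Mrps21 -1.01 to 0.017, Mrps35 -0.63 to 0.028, Mrps7 -0.93 to 0.0017. The causes were not tested. Depth limits Mrps23, with 9 reads in KO 2.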

Other observations

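Nuclear regulators of genes for mitochondrial proteins differed in their course over the libraries. Of 8 tested, 6 had log2 fold changes above 0, with a median of 0.13, and 0 were called by limma (0 at an unadjusted p under 0.05). Gabpa, the DNA-binding subunit of GABP, stood at 4.26, 4.83 and 8.99 FPKM in WT 1 to WT 3 and at 8.16, 13.1 and 3.94 FPKM in KO 1 to KO 3, so that WT 3, KO 1 and KO 2 were its high libraries. Myc stood at 10.02, 13.2 and 22.5 FPKM and at 23.7, 19.6 and 10.2 FPKM, with the same libraries high. Yy1 ranged less, from 15.0 FPKM in KO 3 to 19.9 FPKM in WT 3. Nrf1 was high in the other libraries, with 7.78, 7.69 and 5.84 FPKM in WT 1 to WT 3 and 5.36, 4.96 and 8.11 FPKM in KO 1 to KO 3. Gabpa and Nrf1 were named after their values were seen.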
